A study of Homo sapiens with 15 samples.

Results

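The regions described here were open in every SETD2 knockout (KO) library and in no wild-type (WT) or rescue library of RPTEC cells, which come from the epithelium of the human renal proximal tubule and were immortalised with hTERT. They were chosen by called peaks alone. Peaks of 15 ATAC-seq libraries on chromosomes 1 to 22, X and Y were joined where they overlapped by 1 bp or more, and the 295008 joined regions supported by at least 2 libraries formed the consensus set. A KO-only region was called in each of the 6 KO libraries, in 0 of 3 WT libraries and in 0 of 6 rescue libraries. There were 2413 such regions, or 0.818% of the consensus set. Because the members were selected on the contrast of KO with WT and rescue, that contrast is given for them as a description, with no test.

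The study used ATAC-seq to ask how SETD2 shapes chromatin accessibility in renal epithelial cells, with 3 libraries in each of 5 groups. WT was the RPTEC line with intact SETD2. KO1 and KO2 were clonal lines made with CRISPR/Cas9 and a guide RNA in exon 3, each with frameshifts on both alleles. Rescue1 and Rescue2 were clones of KO cells that had received a lentiviral vector for full-length SETD2 with a FLAG tag and had been selected with blasticidin, and their library names trace both to the KO2 line. All lines, WT included, carried hTERT and were grown with G418. Each KO and rescue line is a single clone, so libraries of a line are replicates of that clone, and nothing in the labels says that they came from separate cultures. The p-values below therefore measure only the spread between these libraries.

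SETD2 is the methyltransferase that places trimethylation on lysine 36 of histone H3 (H3K36me3), a mark laid down over the bodies of transcribed genes as RNA polymerase II moves along them. In ATAC-seq the Tn5 transposase cuts accessible DNA and inserts sequencing adapters, so a peak marks DNA that is less tightly packed by nucleosomes, such as an active promoter or enhancer. Distal open regions are often bound by transcription factors of the AP-1, C/EBP, RUNX, forkhead and POU families, each of which reads a short DNA word.

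The lists held 196969 to 212373 peaks in WT, 204028 to 254650 in KO and 208067 to 265193 in rescue libraries. KO2 replicate 3, with 254650 peaks, stood apart from the other KO libraries (204028 to 220784). No read counts came with the lists, so the depth of each library is unknown and a missing peak means only that none was called. Promoters of 10 to 13 of 18 kidney epithelial marker genes held a peak in each library (12 to 13 in WT, 10 to 12 in KO, 10 to 11 in rescue), with none in any WT library at AQP1, CUBN, HNF4A, PAX2 and SLC5A2. Promoters of 4 of 5 fibroblast markers held a peak in WT, 5 in KO and 3 to 4 in rescue libraries, against 1 of 3 endothelial markers in every library and 0 to 1 of 3 leukocyte markers. A frameshift of a few bases leaves no trace in a peak list, so the knockout itself could not be checked. The SETD2 locus (the gene and 10 kb on either side) held 24 consensus regions, none of them KO-only.

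The DNA of selected strong KO-only regions is shown first, since sequence content is a feature that the membership rule did not use. Windows of 200 bp on the plus strand of hg38 were centred on the median summit of the KO peaks. Capitals mark matches to the POU octamer ATGCAAAT, to the C/EBP word TTGCNNAA, to the AP-1 word TGANTCA or to the forkhead (FOX) word TGTTTAC, on either strand. The strongest member of all, in an intergenic stretch, held none of the 4 words in its window (chr6:91861089-91861288).
KO-only region with MAP3K7 as nearest coding gene: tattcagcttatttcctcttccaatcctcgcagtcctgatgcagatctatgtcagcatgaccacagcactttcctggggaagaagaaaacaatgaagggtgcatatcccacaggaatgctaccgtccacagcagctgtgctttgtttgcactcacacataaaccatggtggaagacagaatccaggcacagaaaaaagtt
The second strongest held an octamer that overlaps a C/EBP word, in an intron of HTR1E (chr6:87004307-87004506), a serotonin receptor gene. Whether this window or the others lie in repeats was not determined.
KO-only region in HTR1E: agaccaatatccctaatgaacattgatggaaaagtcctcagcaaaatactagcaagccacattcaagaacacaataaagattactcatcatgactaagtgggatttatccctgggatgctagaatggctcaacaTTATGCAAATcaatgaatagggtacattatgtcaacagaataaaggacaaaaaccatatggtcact
Among the windows shown, 2 others held an octamer. The first lay in an intron of TMEM171 (chr5:73126458-73126657), with 2 octamers. The second lay in intergenic DNA with SMC2 as nearest coding gene (chr9:103993310-103993509), with an octamer and 3 C/EBP words.
KO-only region in TMEM171: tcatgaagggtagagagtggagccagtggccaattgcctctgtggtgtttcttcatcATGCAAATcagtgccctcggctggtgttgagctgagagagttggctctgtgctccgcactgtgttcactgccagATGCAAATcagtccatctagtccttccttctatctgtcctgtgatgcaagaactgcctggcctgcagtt
KO-only region with SMC2 as nearest coding gene: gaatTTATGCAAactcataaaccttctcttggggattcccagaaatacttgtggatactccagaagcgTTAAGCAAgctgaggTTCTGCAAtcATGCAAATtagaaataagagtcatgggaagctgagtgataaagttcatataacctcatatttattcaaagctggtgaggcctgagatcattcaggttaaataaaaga
Windows in introns of non-coding genes, at chr4:37096061-37096260 (ENSG00000247810) and chr3:118772759-118772958 (ENSG00000243276), each held an AP-1 word, the site of the FOS and JUN proteins.
KO-only region in ENSG00000247810: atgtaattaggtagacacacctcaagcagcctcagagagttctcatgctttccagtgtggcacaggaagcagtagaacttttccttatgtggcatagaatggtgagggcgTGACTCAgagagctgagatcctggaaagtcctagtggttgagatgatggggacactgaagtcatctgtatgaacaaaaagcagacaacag
KO-only region in ENSG00000243276: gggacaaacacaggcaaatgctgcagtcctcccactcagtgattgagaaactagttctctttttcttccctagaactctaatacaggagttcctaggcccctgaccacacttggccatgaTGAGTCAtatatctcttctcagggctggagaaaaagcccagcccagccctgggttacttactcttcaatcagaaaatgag
The strongest member in a coding-gene promoter, beside MS4A5 (chr11:60428629-60428828), held a FOX word.
KO-only region at the MS4A5 promoter: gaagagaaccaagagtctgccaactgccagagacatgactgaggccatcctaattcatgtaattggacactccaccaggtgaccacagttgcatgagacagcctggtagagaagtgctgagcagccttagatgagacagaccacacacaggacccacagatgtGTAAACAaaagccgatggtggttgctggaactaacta

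The octamer was found in the windows of 100 of the 2413 KO-only regions (4.14%), against 1.39% of the windows of all consensus regions, 1.76% of the regions gained in KO and kept in all rescue libraries, and 1.15% of the regions open in all 15 libraries. The C/EBP word was found in 445 members (18.4%), against 10.4% of all consensus regions. The FOX word was found in 181 members (7.5% against 3.62%) and the RUNX word TGTGGTT in 294 (12.2% against 8.46%). These words were thus more frequent in members than in the consensus set, but kept regions had similar shares of the FOX (6.89%) and RUNX (12.8%) words, and 10.7% held the C/EBP word. The octamer and C/EBP words can overlap, as in the HTR1E window, but only 21 of the 100 members with an octamer also held a C/EBP word, and without those members the shares stood at 3.27% for the octamer (1.14% of all consensus regions) and 17.6% for C/EBP (10.1%). Words inside repeats were not separated from the rest in any of these shares. Other words were rarer in members. The CTCF motif, the site of the main insulator protein, was found in 5 members (0.207% against 1.95%), the ETS word CCGGAAG in 16 (0.663% against 1.79%) and the CRE word TGACGTCA in 1 (0.0414% against 0.355%).

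AP-1 was found in 34.2% of members and 30.3% of all consensus regions, but in 42.7% of the regions gained in KO and kept in rescue. The NF-kB word GGGNNNTCC was found in 10.5% of members and 10.9% of the consensus set. The HNF1 word GTTAATNAT was found in 1.91% against 1.30%, the SOX word ACAATGG in 3.44% against 2.64%, the homeobox word TAATTA in 4.06% against 3.59% and the TEAD word GGAATGT in 4.06% against 4.81%. The NFI word TTGGC, at 36.5% against 34.7%, was the most frequent of the words searched. In all, 18 words were searched. A match describes the letters in the window and does not show that a factor was bound.

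Members had fewer G and C bases than the consensus set, with a median of 44% against 47.5%, and the words differ in base composition, so the shares were also read within bands of GC content that were set after the shares had been seen. Among windows with under 40% GC, 7.26% of 468 members and 2.82% of all consensus regions held an octamer. The shares were 4.56% and 1.99% between 40 and 45% GC, 2.47% and 1.21% between 45 and 50%, and 2.50% and 0.699% at 50% or more. The octamer was therefore more frequent in members in each of the 4 bands. The same held for C/EBP, with 22.4% against 15.7% in the lowest band and 11.8% against 6.18% in the highest. For the ETS word the shares were close between 45 and 50% GC (0.924% against 0.797%) and apart in the highest band (1.14% against 3.64%).

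Strength was read within each library, as the percentile of the fold enrichment of a region's strongest peak among all peaks of that library, since fold enrichment compares a peak with the local background of its own library. In bulk cells, a region open in more cells and a region more open in each cell cannot be told apart. The median KO-only region stood at percentile 49.7, 48.5 and 51.9 in KO1 and at 46.0, 42.0 and 50.8 in KO2 (48.2 ± 3.63 over libraries, SD, n = 6). Members thus sat in the middle of each list, with a median fold enrichment of 6.14 to 7.1 against 6.19 to 7.04 for all peaks. Regions gained in KO and kept in all 6 rescue libraries, 6316 in number or 2.14% of the consensus set, stood at 58.8 ± 4.01 (SD, n = 6). Regions open in all 15 libraries stood at 72.7 ± 1.88 (SD, n = 6). All 6 libraries ordered these sets the same way. The sets differ by rule in how many libraries hold a call. Regions called in 5 of 6 KO libraries and no other were weaker than members, with a median percentile of 33.5. The order is thus partly built into the sets and is given as a description.

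The KO clones were compared on this measure, which the rule did not use, although 3 against 3 libraries cannot reach 0.05. The median percentile was 50 ± 1.72 in KO1 and 46.3 ± 4.40 in KO2 (SD, n = 3 each), and the difference of -3.76 (KO2 minus KO1) was smaller than the SD of KO2 (exact permutation p = 0.3, adjusted p = 0.3; the smallest p for 3 against 3 libraries is 0.1). The median peak width at members was 172, 180 and 187 bp in KO1 and 161, 146 and 172 bp in KO2, a difference of -20 bp with ranges that met at 172 bp (exact permutation p = 0.2, adjusted p = 0.3). Single members varied more than these medians. The percentile of a member ranged over 34.6 points across the 6 libraries at the median, and 440 members (18.2%) were stronger in KO1 by more than 20 points while 225 (9.32%) were stronger in KO2 by as much. Across members, the median percentiles in KO1 and KO2 had a Spearman correlation of 0.573, against 0.755 across kept regions and 0.9 across regions open in all 15 libraries. Regions are not independent replicates, so these correlations are descriptions.

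**Figure D1:**
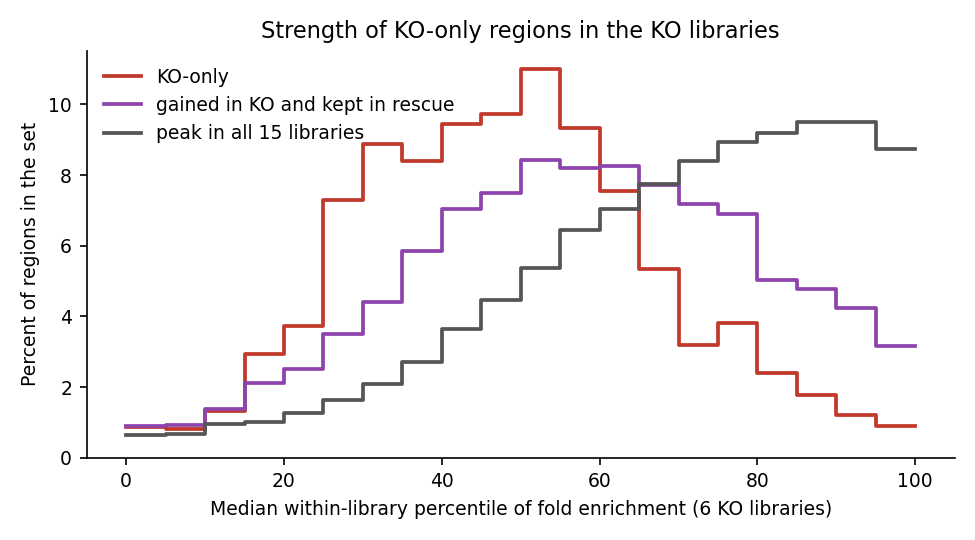
Share of regions (percent of each set, y axis) by median within-library percentile of fold enrichment over the 6 KO libraries (x axis, bins of 5 points), for KO-only regions, regions gained in KO and kept in rescue, and regions with a peak in all 15 libraries. KO-only regions centred on a member median of 48.4, to the left of both other sets, with a short tail of 51 members above the 90th percentile.

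The members' medians ranged from percentile 0.137 to 98.7. Only 51 of the 2413 members lay above the 90th percentile and 244 above the 75th, while 377 (15.6%) were above the 50th percentile in all 6 KO libraries and 451 (18.7%) below it in all 6. The strongest, 758 bp wide at chr6:91860985-91861742, stood at percentiles 99.8, 99.4 and 99 in KO1 and 97.9, 97.6 and 98.4 in KO2, with a fold enrichment of 17.8 to 20.2. It lay in an intergenic stretch, 1274 kb from the start of MAP3K7, the nearest coding gene. The HTR1E member (chr6:87004244-87004693) stood at 98.6, 87.9 and 98.6 in KO1 and 96.4, 98.6 and 97.7 in KO2. KO1 libraries all ranked the strongest member above KO2 libraries, by a few points, while the clones overlapped at HTR1E.

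Most of the other strong members also lay far from coding gene starts. A member in an intron of ZNF804B, a zinc finger gene (chr7:89312443-89312860), had a median percentile of 97.0. Members at chr4:37096007-37096468, in an intron of the non-coding gene ENSG00000247810, and chr3:118772562-118773124, in an intron of the non-coding gene ENSG00000243276, stood at 97.1 and 97.0, the first of them higher in KO2 (97.6, 99 and 99) than in KO1 (89.3, 96.6 and 83.7). Intergenic members were found at chr8:34438799-34439339 (96.8), 796 kb from the start of UNC5D, a netrin receptor gene, at chr5:161078824-161079212 (96.8), 227 kb from ATP10B, and at chr2:123179422-123180018 (96.7), 846 kb from CNTNAP5, a neuronal cell adhesion gene. The member beside MS4A5 (chr11:60428485-60428916), 871 bp from its start, reached 96.8. Of the 10 strongest members, 9 are named here, and the other was on chromosome Y, in intergenic DNA.

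Whether the pattern recurred between libraries was tested with sets defined on some libraries and measured in others. A set defined on replicate 1 of each group (a peak in KO1 and KO2 and none in WT, Rescue1 and Rescue2) held 6356 regions, 2.15% of the consensus set. By its definition it contains all 2413 members. The libraries left out had helped to choose those members, so the test bears on the 6356 regions as a set and not on the members. The libraries left out came from the same lines as the defining ones, and libraries of a line are not independent units of a condition. The test thus asks only whether calls recur between libraries of a line, and does not extend to other clones. A peak was called in 63.4%, 64.6%, 65.2% and 74.4% of all consensus regions in the KO libraries that were left out, in 62.8 to 70.9% in the rescue libraries and in 58.5% and 58.9% in WT. In these KO libraries, 76.4% and 81.2% (KO1) and 70.5% and 83.7% (KO2) of these regions had a peak. The share was 5.99% and 6.31% in Rescue1, 10.1% and 4.96% in Rescue2 and 6.48% and 6.95% in WT. The KO libraries thus all stood far above the WT and rescue libraries, which overlapped each other in this set. The mean was 77.9 ± 5.84% in KO (SD, n = 4) and 6.84 ± 2.24% in rescue (SD, n = 4), a difference of 71.1 points (p = 0.0286 by exact permutation, which is the lowest value for 4 against 4 libraries; adjusted p = 0.120 over 6 such tests, which does not pass 0.05). Against WT (6.72 ± 0.334%, SD, n = 2) the difference was 71.2 points (exact permutation p = 0.133, the smallest possible). With any 1 of the 8 libraries left out the KO minus rescue difference lay between 69.2 and 73.6 points, and its exact permutation p was 0.0571, again the smallest possible. The size depended on the defining replicate. Sets defined on replicate 2 (8431 regions) and replicate 3 (13942 regions) gave KO minus rescue differences of 63.0 and 46.9 points and KO minus WT differences of 65.1 and 53.0 points. In those sets the shares were 62.4 to 84.2% in KO, 10.2 to 13.8% in WT and 9.87 to 13% in Rescue1, while Rescue2 had 26.1% and 9.09% with replicate 2 and 29.5% and 19.7% with replicate 3, partly above the WT range.

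**Figure D2:**
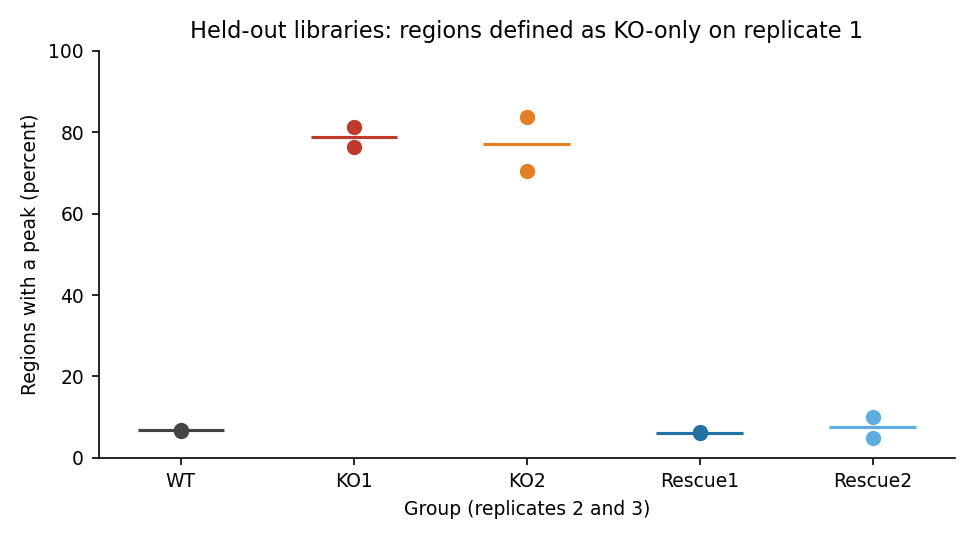
Percent of the 6356 regions defined as KO-only on replicate 1 of each group that held a peak in replicates 2 and 3 (y axis), by group (x axis), with a point for each library and a line at the group mean. KO libraries lay between 70.5 and 83.7% and all WT and rescue libraries at 10.1% or below.

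The same was done with whole clones left out. Regions with a peak in all KO1 and no WT or Rescue1 library numbered 8663 (2.94% of the consensus set). Of these, 60.9%, 59.1% and 70.7% had a peak in the KO2 libraries and 25.2%, 18.7% and 12.7% in the Rescue2 libraries. Over all consensus regions the shares were 66.2%, 65.2% and 74.4% in KO2 and 76.8%, 70.9% and 62.8% in Rescue2, so these regions had a peak less often than the consensus set in both clones, by a few points in KO2 and by far more in Rescue2. The difference of 44.7 points between the clones had a p of 0.1 by exact permutation, the lowest value for 3 against 3 libraries (adjusted p = 0.120). The other pairings of clones gave differences of 49.9 points (KO2 minus Rescue1), 38.3 points (KO1 minus Rescue2) and 55.6 points (KO1 minus Rescue1), with no overlap of groups in any pairing. A part of the regions called in a KO clone was thus not called in the other KO clone.

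KO-only regions had a smaller share in promoters and a larger share between genes than the consensus set. Of the 2413 members, 108 (4.48%) were within 1000 bp of a gene start, 150 (6.22%) in exons, 1201 (49.8%) in introns and 954 (39.5%) between genes. In the consensus set these shares were 11.2%, 8.84%, 51.2% and 28.8%. Regions gained in KO and kept in rescue had a promoter share of 4.62%, close to that of the members, and 31.8% between genes. Regions with the opposite pattern, with a peak in all WT and rescue libraries and in no KO library (927, or 0.314% of the consensus set), had 7.87% in promoters and 24.8% between genes, and regions open in all 15 libraries 18.3% and 25.4%. Counting starts of coding genes only, 31 members (1.28%) lay in promoters, against 6.78% of all consensus regions.

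**Figure D3:**
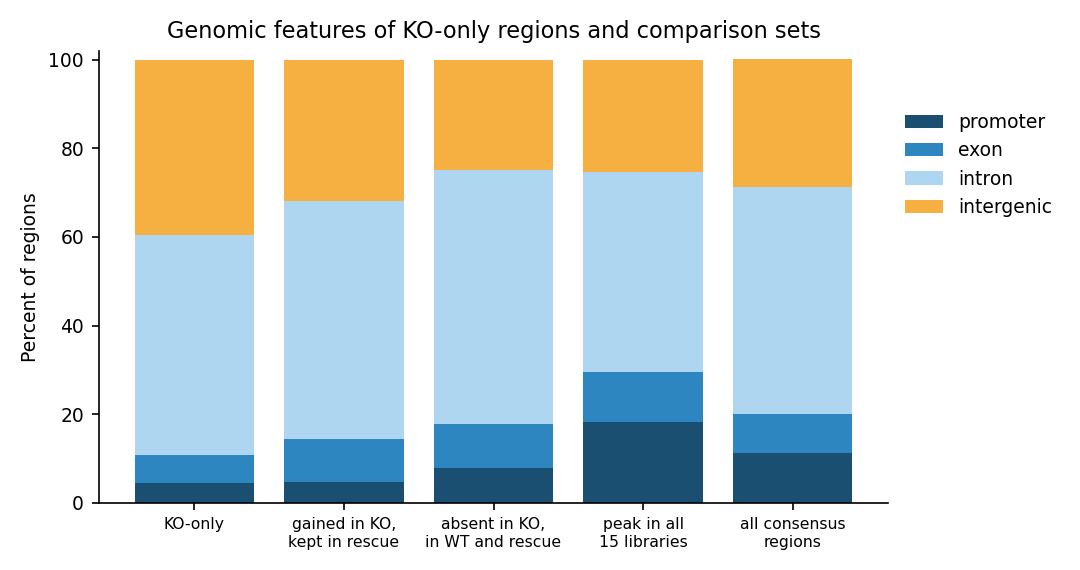
Percent of regions in promoters (within 1000 bp of a gene start), exons, introns and intergenic DNA (y axis, stacked to the whole set) for KO-only regions, the 3 comparison sets and all consensus regions (x axis). KO-only regions had the largest intergenic part of the 5 sets, 39.5%, and the smallest promoter part, 4.48%.

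Distances to genes differed likewise. The median member was 156 kb from the start of the nearest coding gene, against 50.7 kb for all consensus regions, 85.3 kb for kept regions and 38.1 kb for regions of the opposite pattern. In all, 353 members (14.6%, against 5.76% of consensus regions and 11.9% of kept regions) were more than 500 kb from any coding gene start, and the median member had 3 such starts within 500 kb, against 6 for the consensus set and 4 for kept regions. Members inside genes favoured long ones. Coding genes held 956 members (39.6%, against 55.2% of consensus regions), with a median host gene length of 279 kb against 140 kb (189 kb for kept regions), and 469 members (19.4% against 13.6%) lay only within lncRNA genes. Within the host gene, members had a median position of 48.1% of the way from start to end, against 43.8% for all consensus regions.

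Members were also isolated from constitutively open chromatin. The nearest region open in all 15 libraries was 37.8 kb away at the median, against 10.8 kb for kept regions and 9.49 kb for regions of the opposite pattern. The value for the whole consensus set, 1.85 kb, includes the open regions themselves at a distance of 0. Members that ranked higher were the more isolated ones. The rank uses fold enrichment over local background, so it is not independent of how open the surroundings are. Whether this accounts for the gradient was not tested. The median distance was 9.74 kb for the weakest 605 members and 86.6 kb for the strongest 601, and the intergenic share rose with it, from 32.9% to 45.8%. Wide members were also strong (Spearman correlation of 0.444 across members). Members were 257 bp wide at the median, against 244 bp for all consensus regions, 348 bp for kept regions and 472 bp for regions open in all 15 libraries, where merging over more libraries widens a region.

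KO-only regions clustered along the chromosomes. For 12.4% of members the next consensus region was also a member, where members make up 0.818% of the set. The corresponding shares were 9.20% for kept regions, which make up 2.14%, and 6.36% for regions of the opposite pattern, which make up 0.314%. The share with another region of the same set within 50 kb was 37.8% for members (911), 41.1% for kept regions, which are more numerous, and 30.0% for the opposite pattern. The 911 members formed 353 runs of 2 or more, of which 116 held 3 or more and 19 held 5 or more. The other 1502 members stood alone. Members in the 19 runs of 5 or more had a median percentile of 55.9, against 44.9 for those that stood alone. Their median distance to a region open in all 15 libraries was 107 kb, against 23.4 kb. An AP-1 word was found in 44.4% of the windows of members in these 19 runs and in 31.6% of those alone. An octamer was found in 1 of the 117 members in these runs (0.855%) and in 66 of the 1502 alone (4.39%).

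The 19 runs of 5 or more held 117 members among 192 consensus regions (60.9%). The stretches were picked for their members and end at the outermost ones, so this share is high by construction. In 14 of the 19 no region was open in all 15 libraries, and 9 held no coding gene at all. The run with most members lay within LRRC4C, the gene of a postsynaptic adhesion protein, at chr11:40140644-40242102, where 10 of 16 consensus regions were members. Of those 16, the WT libraries had a peak in 0, 0 and 0, KO1 in 15, 14 and 14, KO2 in 14, 12 and 15, and each of the 6 rescue libraries in 1. These totals, and those of the runs below, include the members, whose calls the rule fixes. A run of 8 among 14 regions at chr8:34378963-34535996 contained no annotated gene. Peaks were called there in 0 regions in each WT library, 12, 13 and 12 in KO1, 11, 10 and 13 in KO2, 0 in each Rescue1 library and 1, 0 and 0 in Rescue2.

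Runs of 7 members were found at 5 places. The run at chr2:48927168-49003473 overlapped FSHR, the gene of the receptor for follicle-stimulating hormone. Its members had LHCGR or FSHR as nearest coding gene. It spanned 11 consensus regions. Of these, 1 had a peak in each WT library, 9, 11 and 11 in KO1, 10 in each KO2 library and 1 to 2 in the rescue libraries. At chr8:36449555-36563811 and chr9:1157876-1208530 runs lay in stretches with no coding gene, the second of them with DMRT2 as nearest coding gene. In the first, all WT and rescue libraries had a peak in 0 of 9 regions and the KO libraries in 7 to 9. The last pair lay in ASIC2, which encodes an acid-sensing ion channel (chr17:33942482-34025122), and in CA10, which encodes a carbonic anhydrase-related protein (chr17:51741521-51854361). In the ASIC2 run KO libraries had a peak in 9 to 13 of 13 regions, WT and Rescue1 in 0 and Rescue2 in 3, 2 and 2.

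Among 20033 coding genes, 671 had a member in the gene body, 523 of them a single member and 21 of them 5 or more. DLG2 (ENSG00000150672.19, chr11:83455012-85628335, minus strand), which encodes a synaptic scaffold protein, had the most, 17 of 151 consensus regions. Its length of 2173 kb gives room for many regions, and 22 of them were open in all 15 libraries. The WT libraries had a peak in 50, 47 and 54 DLG2 regions, KO1 in 109, 113 and 117, KO2 in 114, 114 and 133, Rescue1 in 65, 56 and 59 and Rescue2 in 80, 69 and 61. These totals, and those of the genes below, include the members and so describe the rule as well as the gene.

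EYA1 (ENSG00000104313.20, chr8:71197433-71592025, minus strand) came next, with 11 KO-only regions among 31 in its body (35.5%, the highest share among the 14 genes with 6 or more members). EYA1 is a transcriptional coactivator and phosphatase that acts in the progenitors of the nephron, and mutations in it cause branchio-oto-renal syndrome. The WT libraries had a peak in 2, 1 and 2 of the 31 regions, KO1 in 23, 22 and 25, KO2 in 25, 26 and 27, Rescue1 in 8, 6 and 7 and Rescue2 in 7, 6 and 5. KO libraries stood well above all others, and every rescue library stood above every WT library, while no region in the gene was open in all 15. Its strongest member (chr8:71306823-71307051), in an intron 285 kb from the annotated start, stood at percentiles 60.1, 67.3 and 82.7 in KO1 and 96.0, 84.6 and 86.7 in KO2, and held an AP-1 word. Its 11 members spread over 303 kb, and 5 of them formed a run of 47.5 kb in which WT and rescue libraries had a peak in 0 of 7 regions and KO libraries in 5 to 7.

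HPSE2 (ENSG00000172987.14, chr10:98457077-99235862, minus strand), the gene of heparanase-2, had 10 members among 52 regions, and LRRC4C had 10 among 60, all within its run. At HPSE2 a peak was called in 15, 13 and 12 regions in WT, 38, 36 and 41 in KO1, 40, 35 and 44 in KO2, 14, 13 and 15 in Rescue1 and 22, 18 and 16 in Rescue2. Rescue1 libraries lay within the WT range and Rescue2 libraries above it. ASIC2, CA10, KIAA1217 and PRKG1, which encodes a cGMP-dependent protein kinase, had 7 members each. In CA10 the WT libraries had a peak in 9, 8 and 10 of 48 regions, KO1 in 36, 37 and 38, KO2 in 32, 35 and 36, Rescue1 in 13, 14 and 17 and Rescue2 in 22, 17 and 18, so that rescue lay between WT and KO.

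Genes with 6 members were AGBL1, GALNT17, MAST4, NKAIN3, PLD5 and RYR2, the last being the calcium release channel best known from heart muscle. NKAIN3 (29 regions) and PLD5 (26 regions) had 4 to 5 and 4 to 6 occupied regions in the rescue libraries, against 6 in each NKAIN3 WT library and 7, 6 and 7 in PLD5, while KO libraries had 17 to 26 and 17 to 21. At these genes rescue libraries thus had no more occupied regions than WT. GALNT17 was unlike them. There the WT libraries had a peak in 3, 2 and 2 of 46 regions, KO1 in 27, 25 and 24, KO2 in 37, 33 and 39, Rescue1 in 6, 3 and 4 and Rescue2 in 18, 17 and 15. The rescue clones did not overlap, with Rescue2 nearer to KO.

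**Figure D4:**
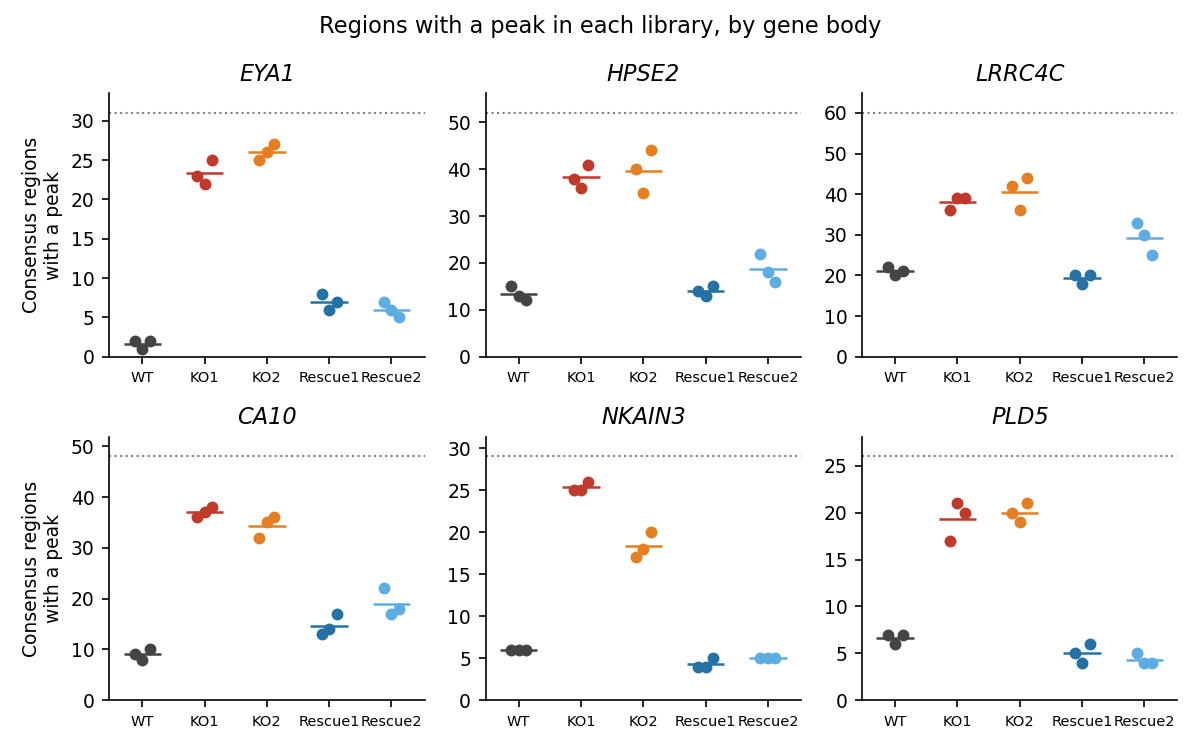
Number of consensus regions with a peak in each library (y axis) by group (x axis) for 6 of the 14 genes with most KO-only regions; points are libraries, lines are group means and the dotted line is the number of consensus regions in the gene. At EYA1, KO libraries had 22 to 27 of 31 regions occupied, against 1 to 2 in WT and 5 to 8 in rescue.

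Lists of genes were read with 10 kb on either side of each gene, against the background of 0.818% of consensus regions that are KO-only. Among 20 genes of nephron progenitors and kidney development, 11 of 251 regions were members (4.38%), all of them at EYA1, and the other 19 genes had none. Near olfactory receptor genes, which lie in large clusters and are mostly silent outside the olfactory epithelium, 14 of 389 regions were members (3.6%). The strongest was beside OR52J3 (chr11:5043278-5043660), with a median percentile of 79.2. Genes of synaptic and neuronal adhesion had 27 of 1420 (1.90%), led by LRRC4C with 10, LSAMP with 5 and NTM with 4, and the strongest of them was in CTNNA2 (84.3), which encodes a neuronal catenin. Potassium channel genes had 18 of 1748 (1.03%), among them KCNH7 and KCNN2 with 4 each.

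Few members lay in or within 10 kb of genes of transcription factor families. C/EBP and RUNX factor genes had 0 of 326 regions, SOX factor genes 0 of 181 and the HOX clusters 0 of 215. Forkhead genes had 3 of 514 (0.584%), 1 each at FOXC1, FOXN3 and FOXP4. All of these lists had a share below 0.818%. Members with SOX11 or SOX2 as nearest coding gene lay beyond the limit of 10 kb and were not counted. The shares therefore describe the genes and their close surroundings, and do not show that the wider loci lack members.

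Genes of the epithelial to mesenchymal transition also had few. Among 23 mesenchymal genes 2 of 442 regions were members (0.452%), 1 in an intron of PRRX1, a mesenchymal homeobox factor (chr1:170734885-170735057), with percentiles of 49.7, 25.6 and 25 in KO1 and 56.1, 39.8 and 47.9 in KO2, and 1 at TNC, a matrix glycoprotein. A stronger member with PRRX1 as nearest coding gene lay beyond the limit of 10 kb and was not counted. Its median percentile was 70.8. Epithelial junction genes had 1 of 459 (0.218%), near DSP. TGF-beta and BMP genes had 0 of 654, cytokines and chemokines 0 of 245 and interferon response genes 0 of 255. WNT ligands and receptors had 3 of 733 (0.409%), at ROR2 and RYK.

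Shares in other lists ranged around the background. Growth factors and their receptors had 8 of 847 (0.945%), with the strongest 8.27 kb from NRG3 (92.9), axon guidance genes 8 of 1331 (0.601%, strongest in SEMA6D at 80.5), metalloproteinases 4 of 364 (1.10%, strongest in ADAMTS12 at 51.6) and NF-kB pathway genes 2 of 209 (0.957%). Protocadherins had 3 of 306 (0.980%, strongest in PCDH15 at 83.7), collagens 4 of 977 (0.409%), integrins and laminins 2 of 757 (0.264%), solute carriers 25 of 4501 (0.555%) and zinc finger genes 10 of 2792 (0.358%). Writers and erasers of H3K36 methylation had 1 of 293 (0.341%), a weak exonic member of SMYD2 with a median percentile of 23. Lists differ in gene length and in how many of their regions lie in promoters, so these shares are counts to be read side by side and not tests.

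The 108 members in promoters had a median percentile of 45, near that of exonic (43.3) and intronic (47.1) members. None of the 108 held an octamer and 10.2% a C/EBP word, against 4.72% and 19.3% of intergenic members. After the MS4A5 member the strongest at coding genes was at the start of MS4A7 (chr11:60378354-60378659), 22 bp away, with percentiles of 68.5, 89.9 and 77.6 in KO1 and 86.3, 88.1 and 90.8 in KO2. MS4A5 and MS4A7 belong to a family of membrane proteins with 4 transmembrane segments whose genes lie side by side, and these members were the 2 strongest at coding-gene promoters. FREM3, a gene of extracellular matrix proteins (chr4:143700048-143700443), followed, with a median percentile of 71.6.

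By chromosome, KO-only regions made up 8.18 of every 1000 consensus regions and ranged widely. The lowest value was on chromosome 19, with 6 of 6917 regions (0.867 per 1000), followed by chromosomes 22 (3.08) and 21 (4.38). Among the autosomes the highest values were on chromosomes 18 (12.7), 8 (12.2) and 11 (11.0). Chromosome 19 has the most coding gene starts of any chromosome, 25.2 per Mb against 6.49 over all. Regions of the opposite pattern were distributed otherwise, with 113 on chromosome 19, or 16.3 per 1000 against 3.14 per 1000 over all. Chromosome 19 thus had the lowest share of KO-only regions and the highest share of the opposite pattern.

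**Figure D5:**
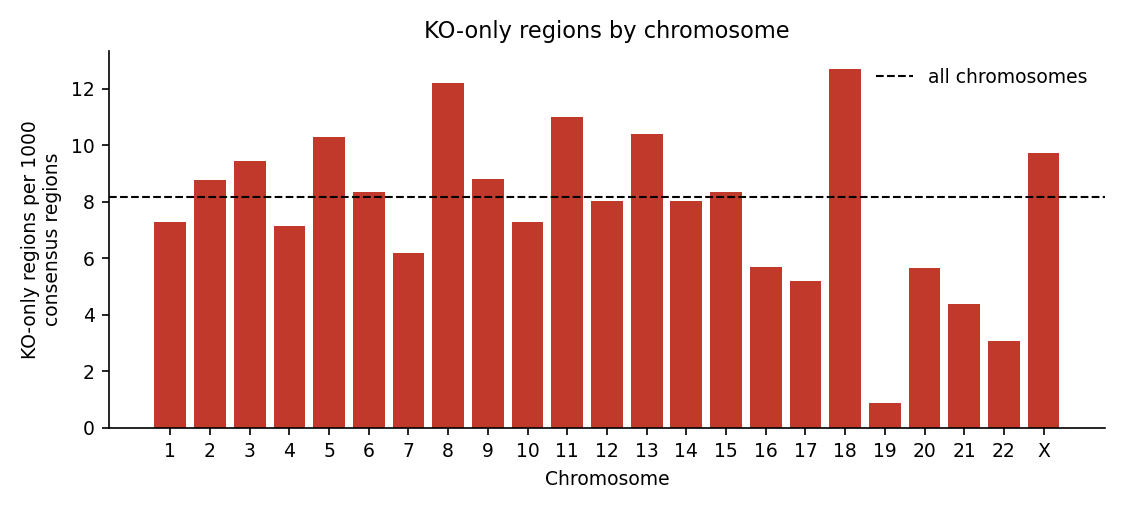
KO-only regions per 1000 consensus regions (y axis) on chromosomes 1 to 22 and X (x axis); the dashed line marks 8.18, the value over all chromosomes. Chromosome 19 had 0.867 and chromosome 18 had 12.7.

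Many regions lay just outside the rule. Regions with a peak in 5 of 6 KO libraries and no other numbered 1767 and were weaker (median percentile 33.5) and narrower (193 bp) than the members (48.4 and 257 bp). Regions called in every KO library and in 1 of the 9 others numbered 1293, with a median percentile of 45.8. The other library was of Rescue2 in 687 of them, of WT in 340 and of Rescue1 in 266. Among these 1293 regions the WT or rescue call thus came most often from Rescue2. Rescue2 replicate 1 also had the longest list of all libraries (265193 peaks), and leaving it out gave 2871 KO-only regions. Whether list length accounts for the Rescue2 calls was not tested. With the KO lists cut to their 150000 strongest peaks, 684 of the members were still called, and the rule gave 5985 regions with KO1 as the only KO clone, 4699 with KO2 and 4172 with Rescue1 as the only rescue clone.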

How the data were processed

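ATAC-seq was performed on 15 RPTEC libraries, 3 per group, grouped by the labels. The authors aligned reads to hg38 with BWA (0.7.17 in the submitters' processing notes) and called peaks per library with MACS2 2.2.7.1 and no pooling. Each deposited list gives a peak's interval, fold enrichment over local background as a ratio, −log10 p, −log10 q and summit. The lowest −log10 q was 1.30. The deposited MACS2 score was not used. Control tracks, duplicate removal and treatment of repeats were not given in the sources used here. Read depth was unknown, so no counting interval was computed.

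Regions were merged and annotated with GENCODE 44 in Python 3.11.15 (numpy 2.4.6, scipy 1.17.1). Libraries were compared by exact permutation tests on differences of means (two-sided; the smaller tail was doubled), with Benjamini-Hochberg adjustment over 6 held-out tests and over 2 tests between KO clones. The rules were tested on simulated data. Named regions were the 10 with the highest median percentile, the 3 strongest at coding-gene promoters, the longest runs, the coding genes with most members (14, with ties) and the strongest of the gene lists. Members, words and the 25 gene lists were chosen with earlier results of these data known, and 1 list is not reported here. The share of repeat-masked bases was planned but not computed, because the reference sequence is in upper case.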

Additional observations from a re-analysis of the deposited data

Results flagged for a closer look

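KO2 replicate 3 held 254650 peaks on the main chromosomes, against 204028 to 220784 in the other 5 KO libraries, a gap large enough for this library to stand apart from its group. Of 7 sets of 4 to 6 libraries examined in this way, 1 was marked, and chance marks about 1 in 20. Its KO-only regions stood at a median percentile of 50.8, inside the range of the other KO libraries (42.0 to 51.9).

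Contigs outside chromosomes 1 to 22, X and Y were not part of the comparisons. Their 926 consensus regions on 75 contigs included 2 with the KO-only pattern, 3 with the opposite pattern and 8 gained in KO and kept in rescue.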

How the results depend on the processing

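Of 82 alternatives other than leaving out 1 library, 58 kept the direction, the side of the threshold and the size of the result. Cutting the KO lists alone to 150000 peaks gave 684 regions, a median percentile of 51.8, an intergenic share of 46.9%, 26.0% of members with another within 50 kb and a width of 326 bp. Cutting every list gave 28.6% and 316 bp for the last pair, and 684 of the 1876 regions (28.3% of the members) were shared. The rule with KO1 alone gave 5985 regions, percentile 42.6, 47.5% clustered and 221 bp, with KO2 alone 4699, 38.6, 43.6% and 211 bp, and with Rescue1 alone 4172 regions and 42.5% clustered. Ranking by −log10 p gave a median percentile of 41.6. Promoter shares were 7.67% with 2000 bp and 1.28% for coding genes, clustering was 16.3% within 10 kb and 50.9% within 100 kb, and the octamer share was 2.74% in windows of 100 bp. The lists cut shorter removed weak peaks by construction, and the cause of the other shifts was not tested. Peaks of −log10 q of at least 3 gave 2425 regions, with 2075 of the members (86.0%), and 2238 members had no WT or rescue peak within 500 bp. Leaving out each library in turn gave 2476 to 2882 regions, percentiles of 45.9 to 48.2, promoter shares of 4.30 to 4.77%, intergenic shares of 38.9 to 40.1%, 37.2 to 40.4% clustered, widths of 236 to 257 bp and octamer shares of 3.99 to 4.35%. The held-out differences then ranged from 69.2 to 73.6 points (KO minus rescue), 69.3 to 73.7 (KO minus WT) and 41.2 to 47.9 (KO2 minus Rescue2), and the strength difference from -6.02 to -1.62. With the replicate number as a block the held-out KO minus rescue difference was 71.1 points with an exact permutation p of 0.0556, the smallest its 36 splits allow. The numbers did not pair the libraries, since deviations of same-numbered libraries correlated between -0.0570 and 0.0291.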
